A study of Mus musculus with 6 samples.

Results

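The acute phase reactants are plasma proteins that hepatocytes secrete in larger amounts during inflammation. The 10 genes described here were chosen by name: the serum amyloid A genes Saa1, Saa2, Saa3 and Saa4, the orosomucoid genes Orm1 and Orm2, the lipocalin gene Lcn2, haptoglobin (Hp), hemopexin (Hpx) and Itih3. All 10 matched a probe set by their mouse symbol, out of 16331 gene probe sets in the table. Liver RNA had been hybridised to Affymetrix arrays, 3 of livers labelled Ugcg-deficient (KO 427, KO 429 and KO 431) and 3 of livers labelled wildtype (WT 426, WT 428 and WT 430). Ugcg encodes the glucosyltransferase that makes glucosylceramide, the parent of most glycosphingolipids. No label or design text used here names the deleted allele, the promoter that drives any recombinase, or the strain, sex, age and treatment of the mice. Nor does one say that each array came from its own mouse, so the error behind every p-value is that between arrays and may be technical.

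In the acute phase response, cytokines such as interleukin-6 and interleukin-1 reach the hepatocyte and act through STAT3, NF-kB and C/EBP factors on the genes of secreted proteins. In the mouse, Saa1, Saa2, Saa3, Lcn2 and Orm2 are known for large induction from low resting levels. Orm1, Hp, Hpx and Itih3 are made at high levels in the resting liver and are induced less, and Saa4 is known as the constitutive serum amyloid A. These groups are called strongly inducible and weakly or not inducible below, from that background and not from the present values. The names are relative, and do not say that Orm1, Hp, Hpx or Itih3 are not induced.

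The stretches upstream of Saa1, Saa2 and Orm2 are shown because Saa2 was the named gene with readings closest to those of Saa1 over the arrays and Orm2 had the largest difference between KO and WT livers. Each stretch is the 250 bases before the RefSeq start in GRCm38.p6, written 5′ to 3′ on the strand of the gene, with the C/EBP letters TTGCNNAA and the TATA letters TATAAA in capitals. Saa1 lies on the minus strand at chr7:46742981-46743230, Saa2 on the plus strand at chr7:46751583-46751832 and Orm2 on the plus strand at chr4:63362199-63362448.
Saa1: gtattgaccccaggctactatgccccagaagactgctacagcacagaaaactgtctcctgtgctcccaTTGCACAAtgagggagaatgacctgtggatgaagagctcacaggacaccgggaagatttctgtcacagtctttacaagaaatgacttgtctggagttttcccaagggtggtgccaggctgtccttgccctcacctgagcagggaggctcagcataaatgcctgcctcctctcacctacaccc
Saa2: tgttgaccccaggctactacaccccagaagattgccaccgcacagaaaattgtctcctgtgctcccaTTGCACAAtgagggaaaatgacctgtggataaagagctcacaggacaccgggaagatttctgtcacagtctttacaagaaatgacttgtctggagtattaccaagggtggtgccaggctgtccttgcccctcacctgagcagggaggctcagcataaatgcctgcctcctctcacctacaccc
Orm2: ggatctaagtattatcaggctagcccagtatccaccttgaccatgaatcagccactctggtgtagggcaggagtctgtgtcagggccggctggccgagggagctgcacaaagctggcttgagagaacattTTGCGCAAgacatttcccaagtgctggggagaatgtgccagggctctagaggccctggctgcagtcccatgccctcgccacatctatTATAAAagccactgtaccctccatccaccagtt

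The Saa1 and Saa2 stretches were identical at 238 of 249 aligned bases (95.6%), against 133 of 224 (59.4%) for Saa1 and Saa3. Both held TTGCACAA, which starts 182 bases before the start of Saa1 and 183 before that of Saa2. Orm2 held TTGCGCAA from base -120 and TATAAA from base -33. Of the 8 members with an entry in the RefSeq promoter table, 7 held the C/EBP letters on one strand or the other (Itih3 did not), as did 9.56% of the 32851 promoters in that table. The TATA letters were found in Orm2 alone among the 8 members and in 12.4% of all promoters. The NF-kB letters GGNNTTTCC were found in Saa3 alone and in 4.93% of all promoters. The STAT letters TTCNNNGAA (7.02% of all promoters) were in none of the 8 windows, and all letters were sought on both strands. A match in letters is a description of the sequence, and its absence says only that these letters are not in this window. No matches of different motifs overlapped. Probes for Saa1 and Saa2, and likewise for Orm1, Orm2 and their paralog Orm3, may share target sequence. The sources used here do not say which bases the probes read, so values within each family are not certain to be separate.

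The deposited values are on the log2 scale and ran from 5.38 to 14.69, with array medians between 6.791 and 6.81. Ugcg itself read 7.12, 6.70 and 6.68 on the KO arrays, against 6.81, 6.85 and 6.87 on the WT arrays, and the means differed by -0.0088 (limma adjusted p = 0.998). Its probe set therefore does not check the labels, and every direction below rests on them. The hepatocyte gene Alb read 14.60 to 14.69 on the KO arrays and 14.64 to 14.69 on the WT arrays, at the top of the scale. The mean of the 9 measured hepatocyte markers lay within 0.05 of the WT mean on every array. Of the 9, 2 had all KO arrays above all WT arrays, as did 833 of all 16331 probe sets. Another 1 had all KO arrays below, as did 730 of the 16331. Of the 2, F2 differed by only 0.021, with a gap between the groups that rounds to 0.0. Tat, the tyrosine aminotransferase gene, was the 1 with an unadjusted limma p under 0.05 (0.00876), and it read 12.69, 12.91 and 13.24 in the KO livers, against 12.58, 12.53 and 12.44 in the WT livers (0.43, limma adjusted p = 0.951). Tat was highest in KO 431, as were Saa1, Saa2 and Lcn2. The Gapdh control probe sets of the 3′ and 5′ ends differed by -0.02 to 0.09 on the KO arrays and by 0.03 to 0.13 on the WT arrays, and those of beta-actin by 0.94, 0.88 and 0.74 in KO 427, KO 429 and KO 431, against 0.93, 0.74 and 0.69 in WT 426, WT 428 and WT 430. WT 430 stood apart, with the highest reading of all 10 measured genes of the exocrine pancreas and a list mean 1.84 above the WT mean of those genes. Adjusted p-values are Benjamini-Hochberg values over all 16331 probe sets from limma, called at under 0.05, and differences are KO minus WT.

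None of the 10 reactants passed the threshold in KO against WT livers. For 5 of them, Orm2, Orm1, Itih3, Hp and Hpx, every KO array read above every WT array (5.10% of all probe sets did so). Orm2 had the largest difference, 0.79 on the log2 scale, and the other 4 differed by 0.12 to 0.21. Saa1, Saa2 and Lcn2 also had higher KO means, by 0.65, 0.68 and 0.61, but their groups overlapped, and without KO 431 the differences were -0.028, 0.14 and 0.17. Saa3 and Saa4 differed by -0.11 and -0.06.

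Over the whole table, 4 probe sets (0.0245%) passed the adjusted limma threshold. At an unadjusted limma p under 0.05, 3 members were counted (Orm2, Itih3 and Orm1), beside 4.99% of all probe sets. No member had all KO arrays below all WT arrays. The median difference was 0.206 for the 10 members and 0.00586 for all probe sets, and 8 of the 10 differences were positive, as were 52.6% of all. The members were chosen with earlier results known, so these counts describe the list and are not a test of it.

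**Figure D1:**
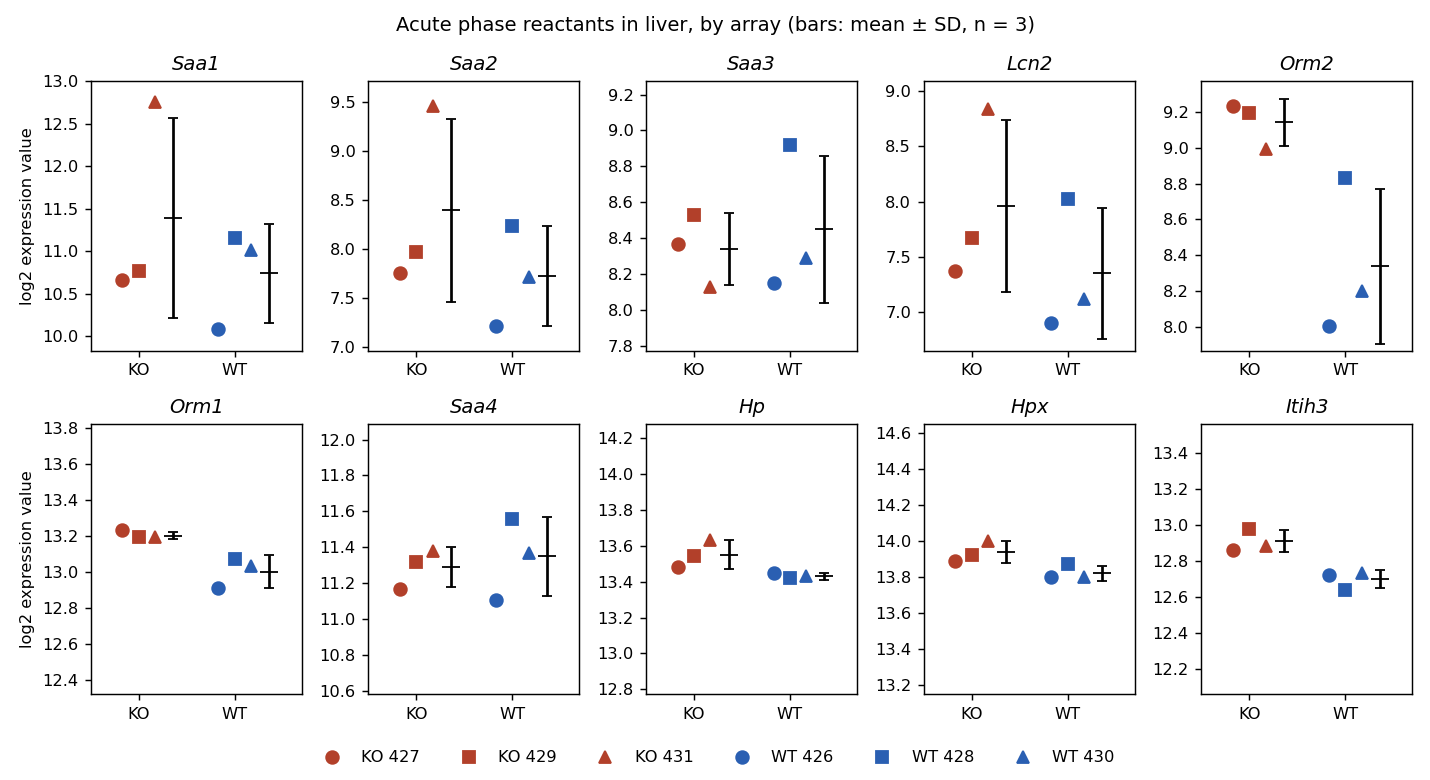
Log2 expression value of each reactant on each array, with KO arrays in red on the left and WT arrays in blue on the right of each panel; the bars are the mean ± SD of 3 arrays, and the axes differ between panels, with the lower row and Saa3 and Orm2 drawn over the same span of values. For Orm2, Orm1, Hp, Hpx and Itih3 every KO symbol lies above every WT symbol, and KO 431 lies far above the other 5 arrays for Saa1, Saa2 and Lcn2.

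Saa1 encodes a major inducible serum amyloid A, an apolipoprotein that travels on high-density lipoprotein. It read 10.66, 10.77 and 12.75 in KO 427, KO 429 and KO 431, against 10.08, 11.15 and 11.01 in WT 426, WT 428 and WT 430. KO 431 was the highest array, and the other KO arrays lay between WT 426 and the other WT arrays, so the groups overlapped. The mean was 11.39 ± 1.17 in KO livers and 10.74 ± 0.58 in WT livers (SD, n = 3 each). The difference was 0.65 (SE 0.512, 95% interval -0.513 to 1.81, limma adjusted p = 0.982).

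Saa2, the second inducible serum amyloid A, read 7.75, 7.97 and 9.46 in the KO livers, against 7.21, 8.23 and 7.71 in the WT livers. As for Saa1, KO 431 was the highest array and WT 426 the lowest. The difference was 0.68 (SE 0.416, 95% interval -0.267 to 1.62, limma adjusted p = 0.982).

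Lcn2 encodes lipocalin 2, which binds bacterial siderophores and so withholds iron from microbes. It read 7.37, 7.67 and 8.84 in the KO livers, against 6.90, 8.02 and 7.12 in the WT livers. KO 431 was again the highest and WT 426 the lowest array, with WT 428 above the other KO arrays. The difference was 0.61 (SE 0.384, 95% interval -0.261 to 1.48, limma adjusted p = 0.982).

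KO 431 stood 4.01-fold above the WT mean for Saa1, 3.34-fold for Saa2 and 2.81-fold for Lcn2. KO 427 lay at 0.944, 1.03 and 1.02 times the WT mean for the same 3 genes, and KO 429 at 1.02, 1.19 and 1.25 times. Without KO 431 the 3 differences lay between -0.028 and 0.17. With each of the other arrays left out in turn, the difference stayed above 0 and reached 1.01 for Saa1 and 1.0 for Saa2, both without KO 427, and 0.95 for Lcn2 without WT 428.

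Saa3, which in the mouse is also made by macrophages and adipose tissue, did not share the KO 431 peak. It read 8.37, 8.53 and 8.13 in the KO livers, against 8.15, 8.92 and 8.29 in the WT livers. KO 431 had the lowest of the 6 readings and WT 428 the highest. The difference was -0.11 (SE 0.188, 95% interval -0.537 to 0.316, limma adjusted p = 0.991), and it turned to 0.12 without WT 428.

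Orm2, one of the genes of alpha-1-acid glycoprotein, a plasma lipocalin that binds small lipophilic molecules, was the member with the smallest p. It read 9.23, 9.19 and 8.99 in the KO livers, against 8.01, 8.83 and 8.20 in the WT livers. The groups did not overlap: the lowest KO array, KO 431, lay 0.16 above the highest WT array, WT 428. The KO livers were also closer together, at 9.14 ± 0.13, than the WT livers, at 8.34 ± 0.43 (SD, n = 3 each). The means differed by 0.79, or 1.73-fold (SE 0.186, 95% interval 0.371 to 1.21, unadjusted p = 0.00217, limma adjusted p = 0.676). This was the rank 52 p-value of the 16331 probe sets. The difference ran from 0.62 without WT 426 to 1.03 without WT 428, where its limma adjusted p was 0.0894, and it was 0.87 without KO 431.

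**Figure D2:**
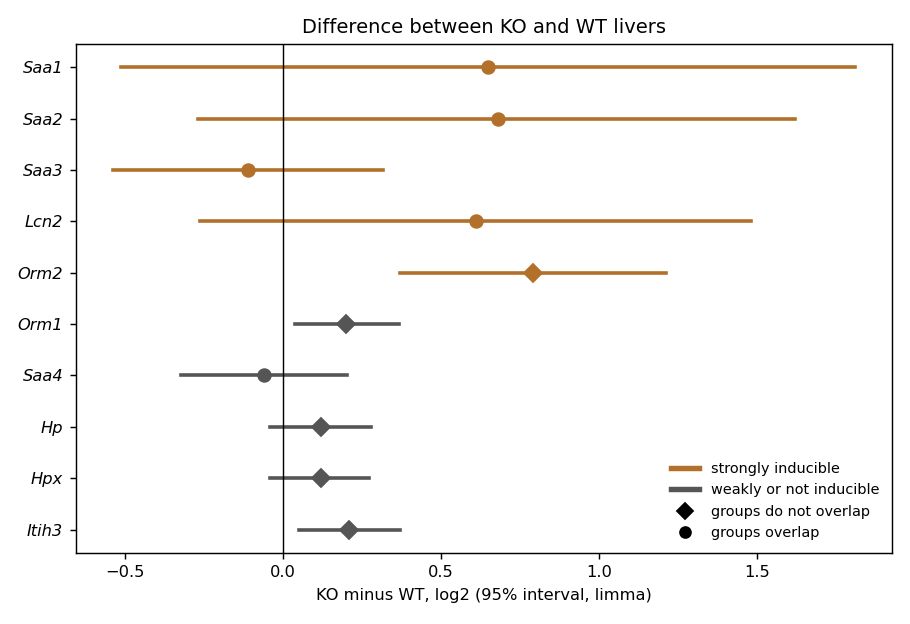
KO minus WT difference of each reactant on the log2 scale, with the 95% interval from limma as a line; brown marks the strongly inducible and grey the weakly or not inducible members, and diamonds mark genes whose groups do not overlap. The intervals of Orm2, Orm1 and Itih3 lie above 0, and those of Saa1, Saa2 and Lcn2 are the widest.

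Among the weakly or not inducible genes, Orm1, the other alpha-1-acid glycoprotein gene of the list, read 13.23, 13.19 and 13.19 in the KO livers, against 12.91, 13.07 and 13.03 in the WT livers. The KO arrays were within 0.04 of each other and all lay above the WT arrays, by 0.12 at the closest. The difference was 0.20 (SE 0.0721, 95% interval 0.0389 to 0.366, unadjusted p = 0.0208, limma adjusted p = 0.951).

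Itih3 encodes a heavy chain of the inter-alpha-trypsin inhibitors, which is transferred to hyaluronan. It read 12.86, 12.98 and 12.88 in the KO livers, against 12.72, 12.64 and 12.73 in the WT livers, and again the groups did not overlap. The difference was 0.21 (SE 0.0702, 95% interval 0.051 to 0.37, unadjusted p = 0.0154, limma adjusted p = 0.951). Leaving out each array in turn gave 0.17 to 0.23 for Itih3 and 0.15 to 0.24 for Orm1.

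Haptoglobin, which binds free haemoglobin, read 13.48, 13.54 and 13.63 in the KO livers, against 13.45, 13.42 and 13.43 in the WT livers. The lowest KO array lay only 0.03 above the highest WT array. The difference was 0.12 (SE 0.07, 95% interval -0.039 to 0.279, limma adjusted p = 0.982).

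Hemopexin, which binds free haem, read 13.89, 13.92 and 14.00 in the KO livers, against 13.80, 13.87 and 13.80 in the WT livers. Here the closest arrays, KO 427 and WT 428, were 0.02 apart. The difference was 0.12 (SE 0.0688, 95% interval -0.0402 to 0.272, limma adjusted p = 0.982). For both Hp and Hpx KO 431 was the highest and KO 427 the lowest KO array, as for Saa1, Saa2 and Lcn2, and the KO arrays spanned 0.15 for Hp and 0.11 for Hpx. Without KO 431 the differences were 0.08 and 0.084.

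Saa4, the constitutive member of its family, read 11.17, 11.32 and 11.38 in the KO livers, against 11.11, 11.56 and 11.37 in the WT livers. The WT livers spanned the KO livers at both ends. The difference was -0.06 (SE 0.115, 95% interval -0.322 to 0.202, limma adjusted p = 0.994), and its sign turned without KO 427 (0.00098) and without WT 428 (0.046).

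Orm1, Hp, Hpx and Itih3 belong to the 119 probe sets whose mean was at least that of Itih3. Of those 119, 13 (10.9%) had all KO arrays above all WT arrays, 4 of which were these members. The median difference of the 119 was 0.00651, and 65 of them had a positive one. Whether readings this near the top of the scale were compressed was not tested.

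The members differed widely in their spread between arrays of the same genotype. The residual SD within genotypes was 0.926 for Saa1, 0.749 for Saa2, 0.691 for Lcn2, 0.323 for Saa3 and 0.318 for Orm2, all within the most variable probe sets of the table (percentiles 98.0 to 99.9). It was 0.0494 to 0.0632 for Hpx, Hp, Itih3 and Orm1, below the median of 0.103 over all probe sets, and 0.176 for Saa4. From the lowest to the highest array, Saa1 spanned 6.36-fold, Saa2 4.76-fold, Lcn2 3.83-fold and Orm2 2.34-fold, against 1.15-fold for Hpx and 1.16-fold for Hp. With 3 arrays a group, the interval of the difference thus reached 1.81 for Saa1 and ended at 0.279 for Hp.

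The strongly inducible genes also followed the same order among the WT livers. WT 428 was the highest WT array for all 5 of them and WT 426 the lowest for all 5. Their mean deviation from the WT mean was -0.45 in WT 426, 0.51 in WT 428 and -0.06 in WT 430. In the KO livers it was 0.16, 0.30 and 1.11 for KO 427, KO 429 and KO 431, but the genes split: KO 431 was the highest KO array for Saa1, Saa2 and Lcn2 and the lowest for Saa3 and Orm2. The weakly or not inducible genes spread less, with means of 0.07, 0.13 and 0.16 in the KO livers, against -0.06, 0.05 and 0.01 in the WT livers. WT 428 was also the highest WT array for 3 of these 5 and WT 426 the lowest for 2 of them, Orm1 and Saa4. For 2 others, Hp and Itih3, WT 428 was the lowest WT array. Of the weakly or not inducible genes, only Orm1 and Saa4 thus followed the WT order of the strongly inducible ones. How many of all probe sets follow that order was not counted.

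**Figure D3:**
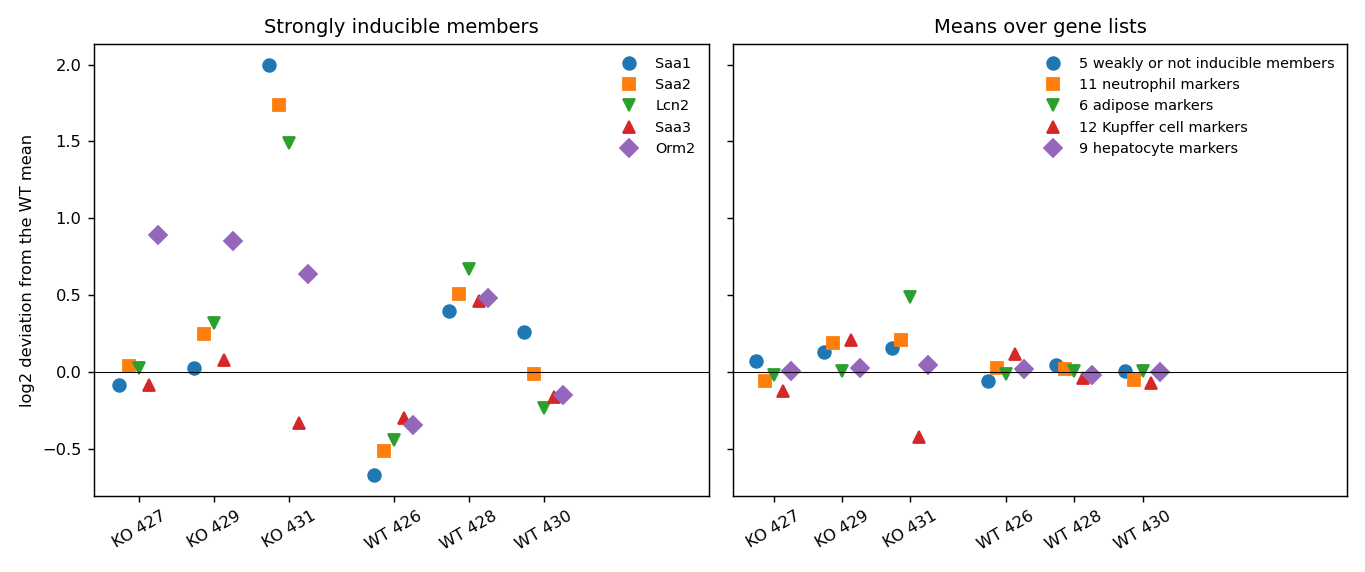
Deviation of each array from the WT mean on the log2 scale, for the 5 strongly inducible genes (left) and for the mean of the weakly or not inducible genes and of 4 marker lists (right), with KO arrays left of WT arrays. Saa1, Saa2 and Lcn2 peak in KO 431 at 2.0, 1.74 and 1.49, whereas Saa3 and the Kupffer cell markers have their lowest point there.

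Lcn2 and Saa3 can also come from cells other than hepatocytes, so marker lists were read on the same arrays. In bulk liver RNA, fewer cells of a type and less RNA per cell cannot be told apart. The 11 measured neutrophil markers had a mean deviation of -0.06, 0.19 and 0.21 in KO 427, KO 429 and KO 431, against 0.03, 0.02 and -0.05 in the WT livers. Their median deviation was -0.04, 0.21 and 0.0 in the KO livers, against 0.02, 0.01 and -0.01 in the WT livers. S100a8 and S100a9, which encode the calprotectin subunits, were highest in KO 431, at 7.76 and 7.59, and read 6.35 to 6.85 elsewhere. The granule genes Ngp (6.28 in KO 431) and Ltf (6.10) were not. Of the 11 markers, 6 were highest in KO 429 and 2 in KO 431. No member of this list passed limma's adjusted threshold or an unadjusted p under 0.05.

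Of the 6 measured adipose markers, 4 were highest in KO 431, where the list mean was 0.49, against -0.02 and 0.01 in the other KO livers and -0.01 to 0.01 in the WT livers. The list median in KO 431 was lower, at 0.31. The fat hormone gene Adipoq read 6.92 in KO 431 and 5.81 to 6.10 elsewhere. The other 2 markers, Car3 and Cidec, were highest in WT 426. Car3 was the 1 gene of the 6 with an unadjusted limma p under 0.05 (0.0489). It differed by -0.18, with all KO arrays below all WT arrays, as for 730 of all 16331 probe sets. Of the 12 Kupffer cell and macrophage markers, 10 were lowest in KO 431, with a list mean of -0.42 there, -0.12 in KO 427 and 0.21 in KO 429, against -0.07 to 0.12 in the WT livers. The table has no detection calls, so no marker can be said to be absent. The part of neutrophil, adipose or Kupffer cell RNA in the KO 431 readings was not tested.

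The 5 genes outside the list whose readings lay closest to those of Saa1 were sought by root mean square distance over the 6 arrays, each gene centred on its own mean. They were Fabp4, a fatty acid carrier of adipocytes and capillary endothelium (0.392), the platelet chemokine genes Ppbp (0.402) and Pf4 (0.470), S100a8 (0.424) and Nrgn (0.486). Saa2 (0.201) and Lcn2 (0.347) were closer still, at the first and the second place among all named genes, whereas Saa3 (0.902) came at place 14525. All 5 outside genes had their highest reading in KO 431, from 7.76 for S100a8 to 8.99 for Fabp4. Because Saa1 itself peaked in KO 431, a choice by closeness to Saa1 favours such genes, so this peak is no separate result. The WT livers were closer together for these genes than for Saa1, which spanned 1.07 there: Ppbp read 6.56, 6.38 and 6.40 and Pf4 read 6.67, 6.67 and 6.71 in WT 426, WT 428 and WT 430.

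Of 27 other positive acute phase genes listed for comparison, 24 were measured. None passed limma's adjusted threshold, and 6 had an unadjusted p under 0.05, beside 4.99% of all probe sets. Of the differences 13 were positive and 11 negative, where 52.6% of all probe sets had a positive one, and the median was 0.0239. Cfb, complement factor B of the alternative pathway, read 12.07, 12.06 and 12.01 in the KO livers, against 11.79, 11.88 and 11.84 in the WT livers (0.21, limma adjusted p = 0.951). It was the 1 gene of the 24 with all KO arrays above all WT arrays, as were 833 of all 16331 probe sets. The protease inhibitor gene Serpina3n read 11.24, 11.30 and 11.65 in the KO livers, against 11.30, 10.69 and 10.54 in the WT livers (0.55, limma adjusted p = 0.951). The groups overlapped only through WT 426, which was the lowest array for Saa1 but the highest WT array for Serpina3n.

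Fgl1, a fibrinogen-like protein secreted by hepatocytes, read 11.80, 11.83 and 12.04 in the KO livers, against 11.07, 11.17 and 11.86 in the WT livers (0.53, limma adjusted p = 0.951). Lpin1, a phosphatidate phosphatase whose liver transcript is induced by fasting, read 10.85, 9.15 and 8.97 in the KO livers, against 10.47, 10.83 and 11.46 in the WT livers (-1.26, limma adjusted p = 0.951). It passed the threshold without WT 430 and KO 427 together (-1.59, limma adjusted p = 0.0141). These arrays had the lowest quality weights (0.776 and 0.786), estimated from the same values. KO 427 was the only KO array that overlapped the WT arrays for Lpin1. Orm3, looked up after the values of Orm2 were seen, read 7.85, 9.18 and 8.86 in the KO livers, against 8.22, 7.89 and 8.03 in the WT livers. KO 427, the highest array for Orm2, was thus the lowest array for Orm3 (limma adjusted p = 0.982). The fibrinogen chain genes, read outside the rule, had differences of -0.13 (Fga), 0.015 (Fgb) and -0.0029 (Fgg), at unadjusted limma p-values from 0.0926 to 0.97. Fga was the 1 gene of the 24 with all KO arrays below all WT arrays, as were 730 of all 16331 probe sets.

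Negative reactants are plasma proteins and other liver products whose output falls in an acute phase response. Of 14 measured, 10 differences were positive and 4 negative, with a median of 0.0137, and none passed limma's adjusted threshold or an unadjusted p under 0.05. The smallest p-values were those of Fetub, a fetuin (0.13), the growth factor gene Igf1 (0.13), the bile acid synthesis gene Cyp7a1 (0.43) and transthyretin, Ttr (-0.042), at limma adjusted p-values from 0.982 to 0.987.

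Among the 35 measured genes of the cytokine pathway upstream, none passed the limma threshold, adjusted or at an unadjusted p under 0.05. Of the ligands, 8 of 9 had positive differences, with a median of 0.0469, where 52.6% of all probe sets had a positive one. Il6, Tnf, Lif, Il11, Clcf1 and Osm read below the array medians on every array, with Il6 at 5.70 to 5.82. Ctf1 read above the medians on every array, and Il1a and Il1b read on either side of them. Of the receptors, 6 of 7 had negative differences, with a median of -0.115. The kinases and transcription factors had 6 positive and 8 negative differences, and the feedback inhibitors 3 and 2. Osm, a ligand of the interleukin-6 family, differed by 0.17, the NF-kB cofactor gene Nfkbiz by -0.24, Cebpa by -0.18 and the glucocorticoid receptor gene Nr3c1 by -0.13, each at a limma adjusted p of 0.982. Socs3, a STAT3-induced feedback inhibitor looked up outside the rule, read 6.75, 7.31 and 6.70 in the KO livers, against 7.17, 7.41 and 6.93 in the WT livers. KO 431, with the highest Saa1, had the lowest Socs3 reading (6.70, beside 6.75 in KO 427), and among the WT livers WT 428 was the highest for both. Other genes of the pathway went either way, also read outside the rule. Cebpd and Cebpb were highest in KO 431 (8.03 and 9.52) and, among the WT livers, in WT 428 (7.95 and 9.46). Nfkbiz and Il6ra were lowest in KO 431 (6.64 and 6.73). A link of any of them to Saa1 was not tested.

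Of 16 measured genes for carriers, receptors and partners of these proteins, 7 differences were positive and 9 negative, and none passed the limma threshold, adjusted or at an unadjusted p under 0.05. The haem-degrading oxygenases Hmox2 and Hmox1 differed by -0.17 and -0.12. Tlr2, a receptor for bacterial lipoproteins, read 6.40 to 6.47 in the KO livers and 6.52 to 6.54 in the WT livers (-0.093, limma adjusted p = 0.982). It was the 1 gene of the 16 with all KO arrays below all WT arrays, as were 730 of all 16331 probe sets. Tnfaip6, whose product transfers inter-alpha-inhibitor heavy chains to hyaluronan, differed by -0.12.

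**Figure D4:**
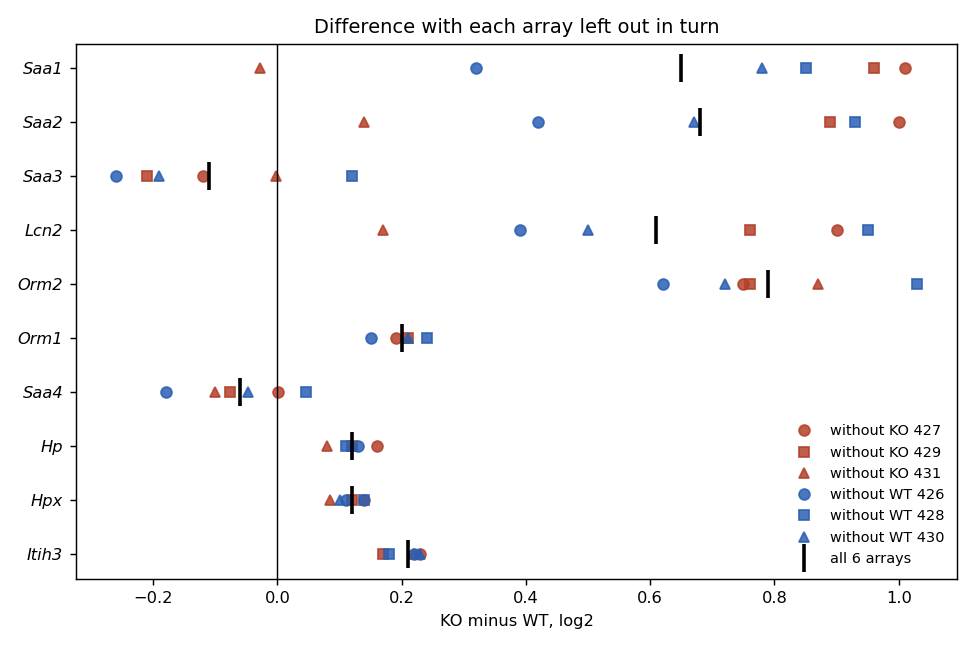
KO minus WT difference of each reactant on the log2 scale with all 6 arrays (black bars) and with each array left out in turn (red without a KO array, blue without a WT array). Without KO 431 the differences of Saa1, Saa2 and Lcn2 are -0.028, 0.14 and 0.17. Those of Orm2, Orm1, Hp, Hpx and Itih3 lie above 0 throughout, as they must when groups that do not overlap lose an array.

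Without WT 428, the highest WT array for all 5 strongly inducible genes, 7 members had all KO arrays above all WT arrays, beside 10.6% of all probe sets. With any other array left out the count was 5, beside 9.15% (without WT 426) to 11.8% (without KO 431). Groups that do not overlap cannot come to overlap when an array is left out. The count could therefore not fall below 5, and this is no check of it. The median difference of the 5 strongly inducible genes ran from 0.144 without KO 431 to 0.933 without WT 428, against 0.649 with all arrays, and was 0.389 without WT 426. That of the 5 weakly or not inducible genes ran from 0.084 without KO 431 to 0.155 without KO 427, against 0.12 with all arrays.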

How the data were processed

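Expression had been measured in liver RNA on Affymetrix arrays with biotin-labelled cRNA, per the labels' protocols. The deposited table holds log2 values, as its range shows; the authors' background correction, normalization and summarisation are not stated in the sources used here. Of 16395 probe sets, 64 controls were left out and 16331 tested. Names came from the platform annotation through the Entrez number in each probe set's name: 15644 had 1 symbol and 687 none.

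The values were used as deposited. KO was compared with WT by limma 3.58.1 in R 4.3.3 (lmFit, eBayes, two-sided, Benjamini-Hochberg over all probe sets), which was tested on simulated data. Members, lists, motifs and the rule for named genes were chosen with earlier results of these data known. Named were all members, the 4 genes of each list with the smallest p, and the 5 genes closest to Saa1; further genes are marked as outside the rule or are cell markers. The 12 alternatives were quantile normalization, median centring, a trend of the variance with intensity in a robust fit, weights by array quality, a filter on the 40% of probe sets with the lowest means, each array left out, and WT 430 and KO 427 left out together. The count of members whose groups do not overlap was added after the data were seen. Upstream sequences are from RefSeq (GRCm38.p6). Figures were drawn with matplotlib 3.10.9.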

Additional observations from a re-analysis of the deposited data

How the results depend on the processing

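No member passed the adjusted threshold under any of the 12 alternatives; over them the smallest limma adjusted p was 0.0894, for Orm2 without WT 428. The number of probe sets past the threshold in the whole table, 4 with all arrays, was 8 with array quality weights, 8 without WT 430 and KO 427 together, and 0 to 4 when 1 array was left out (0 without KO 427, KO 429, KO 431, WT 426 or WT 428). In the list of other positive reactants 1 gene, Lpin1, passed without WT 430 and KO 427 together. The sign of Saa1 turned without KO 431 (-0.028 to 1.01 over the arrays left out in turn), that of Saa3 without WT 428 (-0.26 to 0.12) and that of Saa4 without KO 427 or WT 428 (-0.18 to 0.046) and without WT 430 and KO 427 together (0.013). Their causes were not tested. Orm2, Orm1, Lcn2, Saa2, Hp, Hpx and Itih3 kept a positive difference under every alternative run. For Orm2, Orm1, Hp, Hpx and Itih3, whose groups do not overlap, leaving out arrays could not turn the sign. No paired analysis was possible because KO and WT arrays share no replicate number. Precision is limited by 3 arrays a group.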
